A study of Homo sapiens with 12 samples.

Results

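The genes of the respiratory chain and its ATP synthase were examined in RNA-seq of 2 human tumor lines treated with 77-39, an inhibitor of SIRT3, the main deacetylase of the mitochondrial matrix. Members were chosen by gene name alone. They were the 13 protein-coding genes of the mitochondrial genome, the protein-coding nuclear genes whose symbols begin with UQCR or ATP5, and CYC1. SDHA to SDHD, 10 listed COX genes, the numbered NDUF subunit genes and NDUFAB1 completed the set. The names thus include the inhibitor ATP5IF1, ATP5S, the retrocopies ATP5MGL and UQCRHL and the readthrough gene ATP5MF-PTCD1. Isoforms such as COX4I2 and NDUFA4L2 are left out. The rule gave 96 of the 58735 annotated genes, 13 mitochondrially encoded and 83 nuclear, and 56 pseudogenes whose names match were left out. Complex I held 7 mitochondrial and 38 nuclear members, complex II 4 nuclear members, complex III 1 and 10, complex IV 3 and 10, and complex V, the ATP synthase, 2 and 21.

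The study compared cells given 77-39 with control cells in lines labelled KGN and COV434, both labelled as granulosa cell tumor lines, both wild type by label and both grown in DMEM/F-12 with serum. Each of the 4 groups held 3 libraries, and the control titles were taken to mean untreated, because the treatment text (72 h, a dose written as 10μm/ml whose unit is unclear) stands on all 12 samples. Nothing in the labels says that the 3 libraries of a group came from separate cultures, so the p-values measure only the spread between these libraries, which may be technical. The libraries held 15547851 to 18280415 reads on genes.

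The labels were checked against marker genes before any comparison. FOXL2, the transcription factor that defines granulosa cells, had 2 reads in all 6 libraries labelled KGN, against a mean of 12.4 ± 0.79 FPKM (SD, n = 3) in untreated libraries labelled COV434. SMARCA4 and SMARCA2, the chromatin remodeling ATPases whose loss marks small cell carcinoma of the ovary, were higher in the libraries labelled COV434 (SMARCA4 9.22 against 2.58 FPKM, and 9860 against 13 SMARCA2 reads), and WT1 was at 59.7 FPKM in the untreated libraries labelled KGN and at 0 reads in those labelled COV434. FSHR had 0 reads in all 12 libraries and NR5A1 had 1. Of markers of other cell types, EPCAM had 1 and 4 reads in the KGN-labelled and COV434-labelled libraries and PTPRC had 281 and 1. FOXL2, SMARCA4 and SMARCA2 thus go against the labels: KGN is known as a FOXL2-expressing granulosa line and COV434 as a line that lacks SMARCA4 and SMARCA2. Whether the labels were exchanged or the lines are others was not tested, and every value by line is given by label only, as libraries labelled KGN or labelled COV434. FPKM are fragments scaled to gene length and to the total of the library. The deposited length was the union of all annotated exons for each of the 58735 genes. For ATP5F1A it was 10908 bases, of which 2076 were coding, and for ATP5F1B 2322 bases, of which 1587 were coding. Levels of different genes on this scale thus depend in part on the annotation, and comparisons between genes are approximate. SIRT3 itself was at 4.29 ± 0.067 and 4.04 ± 0.47 FPKM in untreated and treated KGN-labelled libraries and at 3.82 ± 0.43 and 4.38 ± 0.88 FPKM in those labelled COV434, and was not called in either (limma adjusted p = 0.475 and 0.929).

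The respiratory chain passes electrons from NADH (complex I) and succinate (complex II) through complex III to oxygen at complex IV, and pumps protons whose return through complex V makes ATP. Complex II is encoded wholly in the nucleus, while the other complexes join nuclear subunits, translated in the cytosol and imported, with a few core subunits translated inside the organelle. The mitochondrial genome is transcribed from both strands as long precursors that are cut into single mRNAs, so the levels of its mRNAs depend on stability as well as on transcription, whereas each nuclear subunit has its own promoter. SIRT3 removes acetyl groups from many matrix proteins, subunits of complexes I, II and V among them.

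In annotation order along the mitochondrial genome (GRCh38, chromosome MT) the 13 genes were MT-ND1, MT-ND2, MT-CO1, MT-CO2, MT-ATP8, MT-ATP6, MT-CO3, MT-ND3, MT-ND4L, MT-ND4, MT-ND5, MT-ND6 and MT-CYB. MT-ND6 (MT:14149-14673) is the only one on the minus strand. Whether reads were counted by strand is not given in the sources used here, so reads of MT-ND6 and of RNA antisense to it cannot be told apart. MT-ATP8 (MT:8366-8572) and MT-ATP6 (MT:8527-9207) share 46 bases, or 22.2% of MT-ATP8, and both are read from 1 mRNA in the cell. The shared stretch, in capitals, with 20 bases on either side is shown because a read within it belongs to both genes (MT:8507-8592, plus strand, GRCh38 transcripts):
MT-ATP8/MT-ATP6 overlap: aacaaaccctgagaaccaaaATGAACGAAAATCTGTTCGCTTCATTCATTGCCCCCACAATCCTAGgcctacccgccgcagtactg
MT-ND4L and MT-ND4 share 7 bases and MT-ATP6 and MT-CO3 share 1.

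On the FPKM scale, mitochondrial mRNAs stood far above nuclear ones. MT-CO1, the catalytic subunit of complex IV, had the highest mean level in each of the 4 groups (12218 and 10088 FPKM in untreated and treated KGN-labelled libraries, 19500 and 22251 in COV434-labelled ones). MT-ATP8 was the lowest mitochondrial member in each group, at 29.9 to 245 FPKM. How reads on the bases it shares with MT-ATP6 were counted is not given, so its level is uncertain. Among the nuclear members the catalytic β subunit of ATP synthase, ATP5F1B, stood highest in each group, at 393, 286, 715 and 614 FPKM in the same order. The 13 mitochondrial members took 6.17 ± 0.155% of the reads on genes in untreated KGN-labelled libraries and 6.40 ± 0.551% after 77-39 (n = 3 each, exact two-sided permutation test p = 0.5). In COV434-labelled libraries they took 7.76 ± 0.737% and 8.46 ± 2.47% (exact permutation p = 0.9). With 3 libraries against 3 the smallest p this test can give is 0.1.

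**Figure D1:**
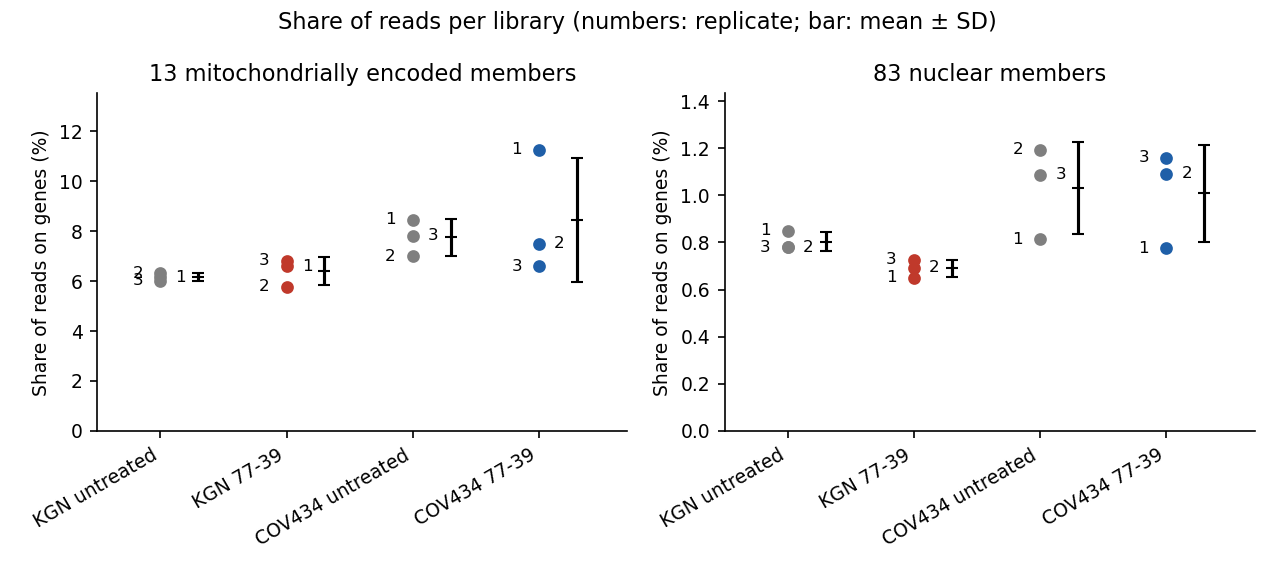
Share of reads on genes (%) taken by the 13 mitochondrially encoded members (left) and the 83 nuclear members (right) in each library, with the replicate number beside each point and a bar for the mean ± SD (n = 3). The nuclear share is 0.651 to 0.726% in the treated KGN-labelled libraries and 0.779 to 0.849% in the untreated ones, and both COV434-labelled libraries numbered 1 have the lowest nuclear share and the highest mitochondrial share of their group.

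The nuclear members together took 0.803 ± 0.0403% of the reads in untreated KGN-labelled libraries and 0.689 ± 0.0376% after 77-39. The ranges did not overlap, and the exact permutation p was 0.1, the smallest possible. In COV434-labelled libraries the nuclear share was 1.03 ± 0.196% untreated and 1.01 ± 0.206% treated (exact permutation p = 0.8). The log2 ratio of the median mitochondrial to the median nuclear FPKM was 7.12 ± 0.0433 untreated and 7.58 ± 0.212 treated in KGN-labelled libraries (exact permutation p = 0.1), and 6.74 ± 0.604 and 6.99 ± 0.829 in those labelled COV434 (p = 0.7). In these bulk samples, less RNA of a kind per cell and fewer cells that make it cannot be told apart.

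In the libraries labelled KGN, 77-39 was followed by lower mRNA of some nuclear subunits of complexes I, III and V and of SDHA, and by higher mRNA of mitochondrially encoded complex I subunits. Of the 79 nuclear members tested, 18 fell and 0 rose at an adjusted p under 0.05 (limma, Benjamini-Hochberg over 12671 genes). That is 22.8% lower, against 16.4% of all genes tested that were lower and 17.6% that were higher. Of protein-coding genes alone, 18.4% were lower and 19.6% higher. At an unadjusted p under 0.05, 24 nuclear members were lower and 1 higher, against 21.6% and 23.7% of all genes. The median log2 fold change of the nuclear members was -0.14, with 67 of 79 below 0, while the median of all genes was 0.01. It was -0.05 without untreated library 1 and -0.09 without treated library 1, and -0.20 at the other end, without treated library 3. Fold changes are on the log2(FPKM + 1) scale, which understates the change of genes of low level. The changes were modest: none of the 18 fell by more than UQCRC1, which fell by 0.53 on this scale.

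Complex III had the largest share of called members among the complexes, 4 of 10, and all 10 had a fold change below 0 (median -0.19). UQCRC1 (ENSG00000010256, chromosome 3:48599002-48610976, minus strand), a core subunit of the complex, was at 68.3, 70.0 and 72.4 FPKM in untreated KGN-labelled libraries and at 46.1, 49.7 and 49.7 FPKM in treated ones. No treated library came near the lowest untreated one, and UQCRC1 fell by 0.53 ± 0.050 (SE, adjusted p = 0.000709). CYC1, cytochrome c1, was at 77.4, 84.8 and 75.0 FPKM untreated and 54.2, 54.0 and 65.7 treated, and fell by 0.45 (adjusted p = 0.00976). UQCRFS1, the Rieske iron-sulfur protein, fell by 0.36 from a mean of 34.6 to 26.7 FPKM. UQCRC2, the other core protein, had 34.6 ± 2.10 and 33.3 ± 0.580 FPKM and was not called (adjusted p = 0.475). UQCR11, a small accessory subunit, fell by 0.19, but all of its coding bases also lie in another annotated gene on the same strand, so how its reads were counted is uncertain.

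SDHA (ENSG00000073578, chromosome 5:218241-256700, plus strand) was the one complex II member that fell. This flavoprotein oxidizes succinate. Its levels were 14.0, 14.3 and 14.7 FPKM untreated and 8.76, 9.97 and 10.4 FPKM treated in KGN-labelled libraries, with no overlap, a fall by 0.52 ± 0.065 (adjusted p = 0.00182). SDHB, the iron-sulfur subunit, had a fold change of -0.11 (adjusted p = 0.292). The membrane anchors SDHC and SDHD had fold changes of 0.13 and 0.15 (adjusted p = 0.0970 and 0.175), so the 4 subunits of this complex did not share 1 direction.

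Of the 19 ATP synthase genes tested, 5 fell (median of the 19, -0.19). ATP5F1B (ENSG00000110955, chromosome 12:56638175-56646068, minus strand) was at 368, 416 and 393 FPKM untreated and 279, 289 and 290 treated, and fell by 0.46 ± 0.062 (adjusted p = 0.00249). Its partner in the catalytic head, ATP5F1A, fell by 0.34 from 64.4 to 50.6 FPKM, and ATP5F1D, the δ subunit of the stalk, fell by 0.35. The ring of c subunits that turns with the proton flow is encoded by 3 genes for the same mature protein, and these differed. ATP5MC3 was at 36.8, 32.2 and 31.7 FPKM untreated and 21.6, 24.0 and 24.3 treated and fell by 0.51 (adjusted p = 0.00301), whereas ATP5MC1 had a fold change of 0.14 (adjusted p = 0.121) and ATP5MC2 of -0.14 (adjusted p = 0.183). The membrane subunit ATP5MF fell by 0.30. ATP5IF1, the protein that inhibits the enzyme when it runs backward, was at 36.5, 23.3 and 24.7 FPKM untreated and 20.3, 20.3 and 20.7 treated, and its difference of -0.42 was not called (adjusted p = 0.0762).

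In complex I, 8 of 36 nuclear members fell (median -0.13). They include NDUFV1, which binds NADH and FMN, with 26.4, 26.7 and 26.7 FPKM untreated and 21.8, 21.7 and 23.2 treated (fall by 0.25 ± 0.043, adjusted p = 0.00582). The core subunits NDUFS1 and NDUFS3 fell by 0.19 and 0.28. The accessory subunit NDUFA6 fell by 0.37, from 54.8, 47.9 and 45.3 to 34.9, 35.9 and 43.1 FPKM, and NDUFA8, NDUFA2 and NDUFB8 fell by 0.29, 0.28 and 0.30. The calls of NDUFS1 and NDUFA6 (adjusted p = 0.0292 and 0.0284) were lost in 7 and 9 of the alternatives. With 1 library left out their limma adjusted p was up to 0.0933 and 0.0952. NDUFB8 shares 85.2% of its coding bases with another annotated gene, and its level (7.20 FPKM untreated) is uncertain for that reason. NDUFAB1, which is also the mitochondrial acyl carrier protein, and NDUFA4, now placed in complex IV, had fold changes of -0.14 and 0.10 (adjusted p = 0.261 and 0.464). NDUFB7 had the most negative fold change of the nuclear complex I genes, -0.41, with a wider spread (adjusted p = 0.0986).

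None of the 10 nuclear complex IV members was called (median -0.05). The smallest adjusted p among them was that of COX6A1, at 36.9 ± 3.48 FPKM untreated and 31.7 ± 2.30 treated (adjusted p = 0.0906). COX8A, a small subunit with 55.1% of its coding bases in another annotated gene, was at 150, 209 and 216 FPKM untreated and 125, 127 and 175 treated (fold change -0.43, adjusted p = 0.110). COX4I1, COX5A and COX7A2 had fold changes of -0.10, -0.16 and -0.05 (adjusted p = 0.571, 0.115 and 0.795).

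**Figure D2:**
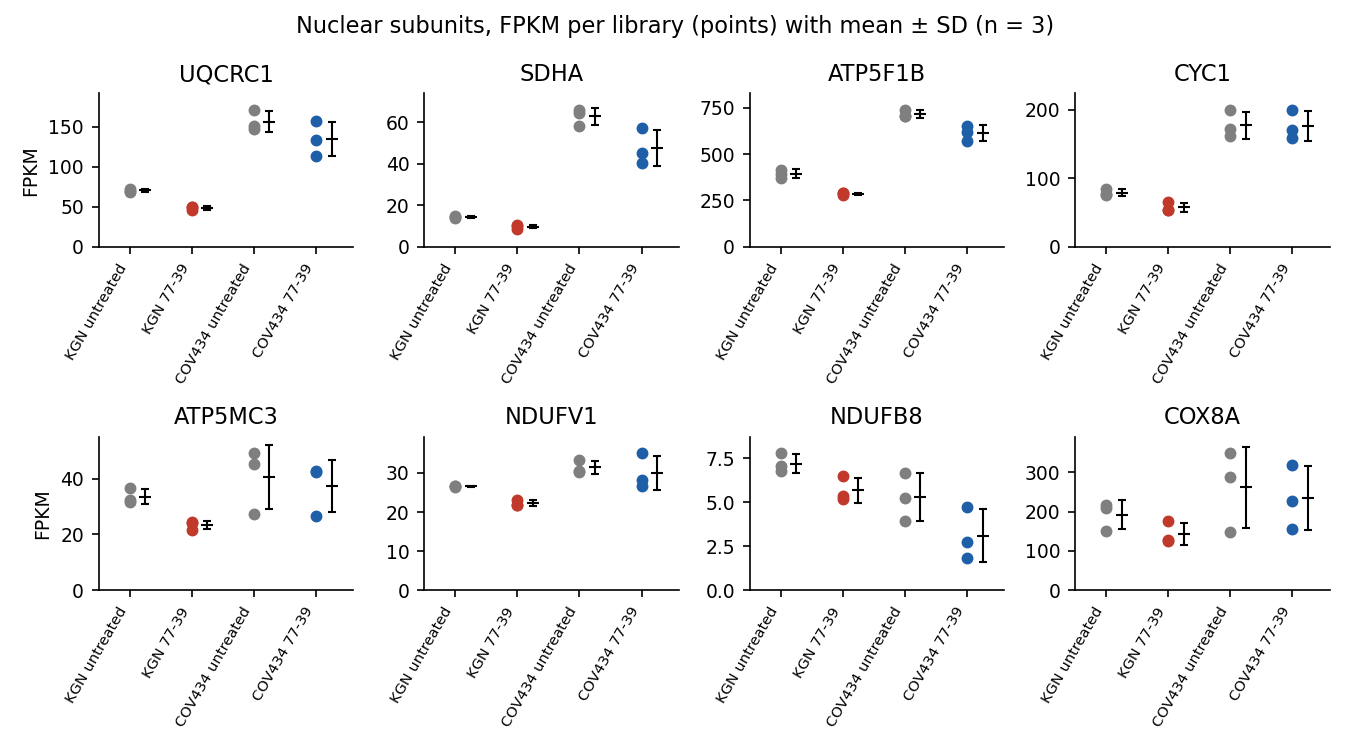
FPKM of 8 nuclear subunits in each library (points) with the mean ± SD of each group (n = 3), on axes that start at 0. UQCRC1, SDHA, ATP5F1B, CYC1, ATP5MC3, NDUFV1 and NDUFB8 are lower in all 3 treated than in all 3 untreated KGN-labelled libraries, while COX8A overlaps.

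The mitochondrially encoded members split by complex in the libraries labelled KGN. All 7 complex I genes had a fold change above 0 and 5 of them rose, while the complex IV gene MT-CO3 fell. Of the 13 mitochondrial members 38.5% were thus higher and 7.69% lower, against 17.6% and 16.4% of all genes tested. With the scaling replaced by quantile normalization the calls were 3 higher and 3 lower, in place of 5 and 1. MT-ND6 was at 3039, 3135 and 3037 FPKM untreated and 5461, 4842 and 5553 treated and rose by 0.78 ± 0.096 (adjusted p = 0.00175). MT-ND2 rose by 0.63, from 2523, 2165 and 2024 to 3582, 3035 and 3786 FPKM (adjusted p = 0.0101). In both genes every treated library exceeded every untreated one. MT-ND5, MT-ND4 and MT-ND1 rose by 0.44, 0.43 and 0.37 (adjusted p = 0.0126, 0.0285 and 0.0282). These calls could be lost with 1 library left out, with a limma adjusted p of up to 0.0507, 0.109 and 0.0844. MT-ND6, MT-ND2 and MT-CO3 stayed called with each library left out (up to 0.0123, 0.0425 and 0.0327). MT-ND4L and MT-ND3 had values of 0.33 and 0.18 (adjusted p = 0.163 and 0.363).

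MT-CO3, a core subunit of complex IV, was at 7713, 8315 and 7520 FPKM untreated and 4825, 4293 and 5411 treated, and fell by 0.70 ± 0.123 (adjusted p = 0.00609). The other complex IV genes, MT-CO1 and MT-CO2, had fold changes of -0.28 and 0.01 (adjusted p = 0.153 and 0.972). MT-CYB, the complex III cytochrome b, was at 2972 ± 173 FPKM untreated and 3634 ± 274 treated (fold change 0.29, adjusted p = 0.0630). MT-ATP6 had a fold change of -0.17 (adjusted p = 0.366). MT-ATP8 was at 558, 88.2 and 90.1 FPKM untreated and 120, 103 and 105 treated, so its fold change of -0.59 (adjusted p = 0.529) rests on the first untreated library. Without that library MT-ATP8 was higher after 77-39 by 0.29 (adjusted p = 0.0307).

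The 6 calls on mitochondrial genes depended on which genes were tested and on the model fitted. With a filter of mean FPKM 0.1 in place of 1, only MT-ND6 was still called, beside 14 nuclear members, and with no filter 0 mitochondrial and 10 nuclear members were called. The fold change of MT-CO3 stayed at -0.70 with no filter, while its SE was 0.719 in place of 0.123. In 1 fit of all 12 libraries only MT-CO3 was still called (limma adjusted p = 0.0314). MT-ND6 and MT-ND2 then had adjusted p of 0.0804 and 0.0694. With the library number as a replicate block, MT-ND5, MT-ND4 and MT-ND1 were not called (adjusted p = 0.0705, 0.112 and 0.111). With limma voom on recovered reads the 6 calls held. MT-CYB and MT-ND4L were then also called higher and MT-CO1 lower (adjusted p = 0.00291, 0.0353 and 0.00929). UQCRC1, SDHA, ATP5F1B and CYC1 were called under all 13 alternative settings and with each of the 6 libraries left out.

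**Figure D3:**
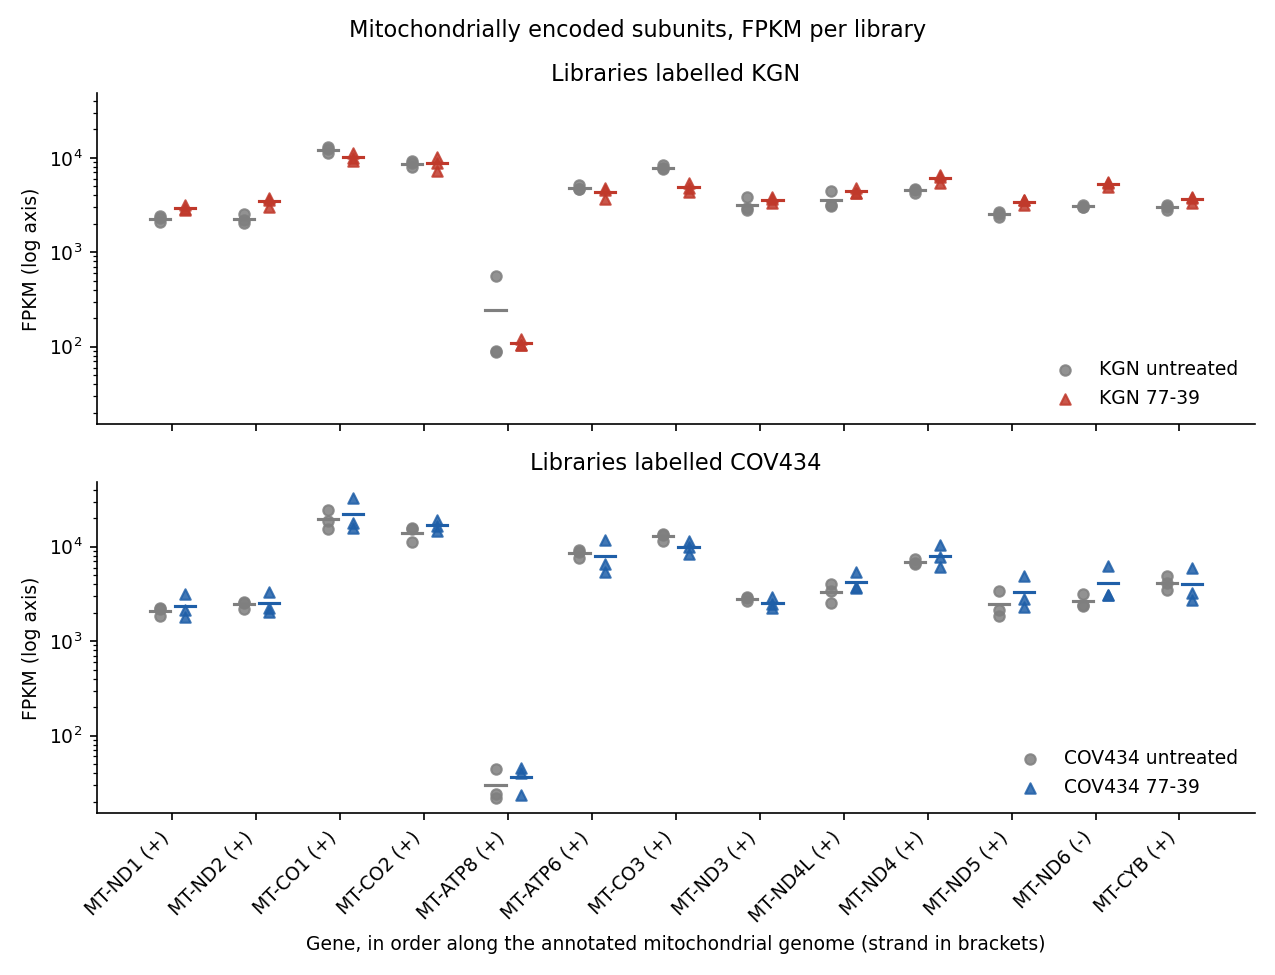
FPKM (log axis) of the 13 mitochondrially encoded genes in each library, in order along the annotated mitochondrial genome with the strand in brackets, and with a line at the mean of each group (n = 3). MT-ND6 is higher and MT-CO3 lower in all 3 treated KGN-labelled libraries, and 1 untreated library stands apart for MT-ATP8.

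The genome holds nuclear copies of mitochondrial genes whose reads can be mistaken for mitochondrial ones. The 394 annotated copies took reads equal to 0.495 to 0.854% of those on the 13 genes in KGN-labelled libraries and 0.924 to 1.42% in COV434-labelled ones. Of these, MTATP6P1 had a mean of 206 and 182 FPKM in untreated and treated KGN-labelled libraries, and MTND2P28 had 144 and 201. Only 6 of the copies passed the filter in KGN-labelled libraries, 1 of which was called, higher. Their part in the mitochondrial results was not tested.

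Of the 96 members, 4 were under the filter: NDUFA7 (0.644 FPKM in untreated KGN-labelled libraries), NDUFV2 (0.524), the retrocopy ATP5MGL (0) and the readthrough gene ATP5MF-PTCD1 (0.0494). NDUFV2 is a core subunit of complex I, and 84.7% of its coding bases lie in another annotated gene. For NDUFA7 this was 78.3%. In all, 12 nuclear members shared at least 50% of their coding bases with other genes and had a median of 6.38 FPKM over all libraries, against 36.1 FPKM for the 62 members that shared under 10%. How reads on shared bases were counted is not given in the sources used here, so the levels of these 12 genes are uncertain.

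In the libraries labelled COV434, 0 of the 79 nuclear and 0 of the 13 mitochondrial members were called by limma. Of all 12060 genes tested 0.00829% were higher and 0.0332% lower, which is 1 and 4 genes, so the absence of calls was general. At an unadjusted p under 0.05, 424 genes were higher and 541 lower, against 3007 and 2736 in KGN-labelled libraries. The study, at a p under 0.05 and with a tool it does not state, reported more changed genes in COV434 than in KGN cells. Why the order is reversed here was not tested. At an unadjusted p under 0.05, 2 members were lower and 0 higher, against 4.49% and 3.52% of all genes. These were NDUFB8, at 3.95, 5.27 and 6.67 FPKM untreated and 1.84, 4.75 and 2.74 treated (fold change -0.65, adjusted p = 0.602), and SDHA, at 65.9, 58.2 and 64.4 FPKM untreated and 40.4, 45.1 and 57.2 treated (-0.41, adjusted p = 0.603). All 3 treated libraries lay below all 3 untreated ones for SDHA and not for NDUFB8. The median fold change was 0.01 for the nuclear members, with 43 of 79 above 0, and 0.14 for the mitochondrial ones. Neither had a stable direction: with 1 library left out the nuclear median ran from -0.21 (without untreated library 1) to 0.22 (without treated library 1), and the mitochondrial one from -0.10 (without treated library 1) to 0.31 (without treated library 3).

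The replicates labelled COV434 differed more among themselves, with a median SE of 0.262 for nuclear members against 0.0863 in those labelled KGN. Both libraries numbered 1 stood apart, with a nuclear median of 24.1 FPKM in each, against 34.1 to 38.7 FPKM in the other 4. As an example, COX6A1 had 24.6 FPKM in untreated library 1 and 70.3 and 59.1 in the other untreated libraries. UQCRC1 was at 171, 146 and 150 FPKM untreated and 157, 114 and 133 treated (-0.22, adjusted p = 0.867). ATP5F1B was at 703, 706 and 738 FPKM untreated and 620, 569 and 653 treated (-0.22, adjusted p = 0.848), with no overlap between the groups. Only 3 of the 83 nuclear members had all treated libraries below all untreated ones, and 1 had them above. For the 13 mitochondrial members it was 1 below and 0 above. The share of all genes without overlap was not counted, so no weight is given to these separations. CYC1 had a fold change of -0.01, ATP5MC3 of -0.11, COX7B of 0.26 and ATP5F1D of -0.33, each with an adjusted p of 0.766 or more. Taken as pairs by library number, a reading that comes from the data, UQCRC1, SDHA, NDUFB8 and ATP5F1B were each lower in the treated library of all 3 pairs. How many other members were so was not counted. With the replicate block, SDHA had -0.41 ± 0.127 (SE, adjusted p = 0.225), NDUFB8 an adjusted p of 0.217, UQCRC1 -0.22 ± 0.101 (adjusted p = 0.399) and MT-ND6 0.56 ± 0.158 (adjusted p = 0.191), and 0 members were called. With both libraries numbered 1 left out, a choice made after seeing the data, 0 members were called as well.

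MT-ND6 in COV434-labelled libraries was at 3178, 2339 and 2438 FPKM untreated and 6202, 3058 and 3078 treated (fold change 0.56, adjusted p = 0.766). The treated library numbered 1 was far above the rest, and the other treated values lay within the untreated range, while each treated library exceeded the untreated one of the same number. MT-CO3 was at 11609, 13676 and 13322 FPKM untreated and 11591, 9830 and 8318 treated (-0.39, adjusted p = 0.790), below all untreated libraries, the first by a narrow margin. MT-ND2, MT-ND5 and MT-ND4 had values of 0.02, 0.41 and 0.19 (adjusted p = 0.999, 0.880 and 0.954). The ratio of MT-ND6 to MT-CO3, chosen after their values were seen and so given with no test, was 0.392 ± 0.0135 untreated and 1.10 ± 0.0597 treated in KGN-labelled libraries and 0.209 ± 0.0562 and 0.405 ± 0.116 in COV434-labelled ones. This ratio is taken within each library, so it does not move with the scaling, and its treated values lay above all untreated values of the same line in both.

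**Figure D4:**
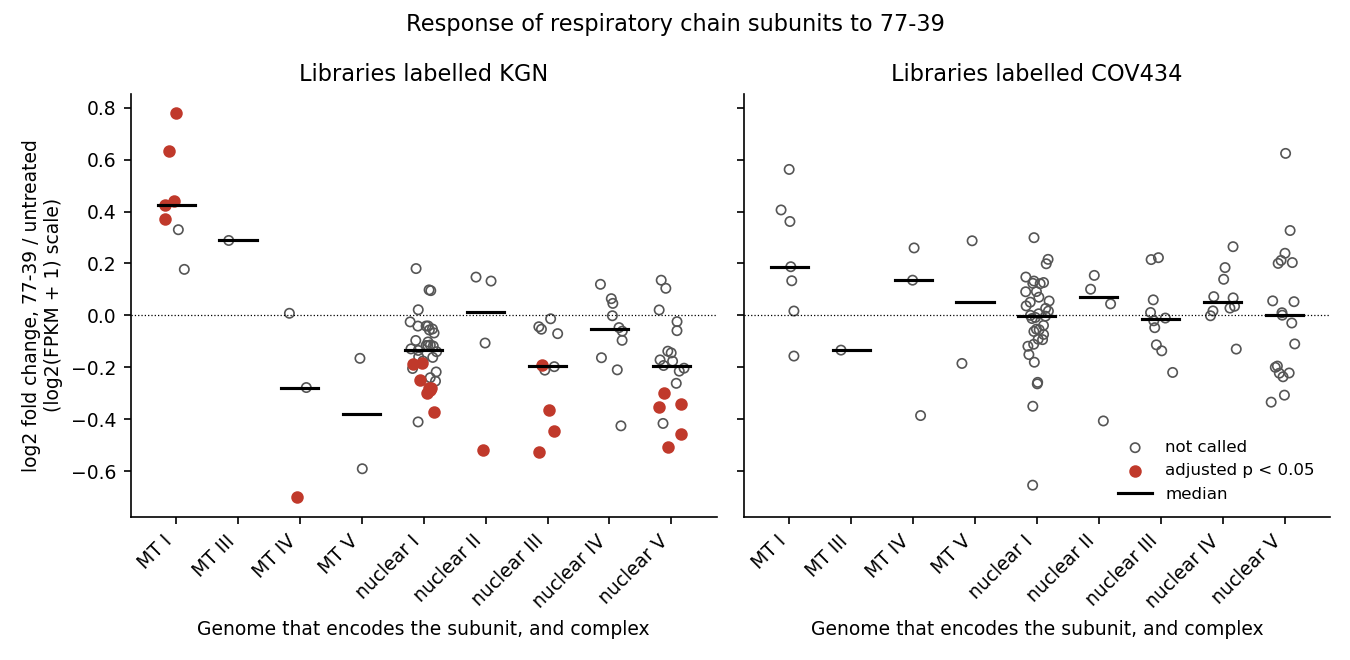
Log2 fold change after 77-39, on the log2(FPKM + 1) scale, of each tested member by the genome that encodes it and by complex, with filled points for an adjusted p under 0.05 and a line at the median. In the KGN-labelled libraries the called points are above 0 for mitochondrial complex I and below 0 for nuclear complexes I, II, III and V and for MT-CO3, and in the COV434-labelled libraries no point is filled.

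The difference between the responses of the lines was tested as an interaction over all 12 libraries. No member was called, and of 13127 genes 1.85% were called with a more positive and 1.74% with a more negative response in the KGN-labelled libraries. At an unadjusted p under 0.05 there was 1 member of each kind, against 9.59% and 8.44% of all genes. MT-ND2 responded more positively in the KGN-labelled libraries by 0.62 ± 0.275 (adjusted p = 0.268), and CYC1 more negatively by 0.44, at -0.44 ± 0.179 (adjusted p = 0.222). For UQCRC1 the difference was -0.31 ± 0.168 and for SDHA -0.11 ± 0.172, so the calls in 1 line and their absence in the other do not show that the lines responded differently. The nuclear members with the smallest p in the other complexes were NDUFB7 (-0.71, adjusted p = 0.355), SDHB (-0.26, 0.515), COX8A (-0.30, 0.813) and ATP5ME (-0.84, 0.393). Without the treated COV434-labelled library numbered 1, MT-ND2 was called at 0.83 (adjusted p = 0.0424). With both COV434-labelled libraries numbered 1 left out, MT-ND2 (0.80), MT-CYB (0.64) and the retrocopy UQCRHL (-0.49) were called.

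Between the untreated lines, most members that differed were lower in the libraries labelled KGN. Of the 79 nuclear members 32 were lower and 8 higher in KGN-labelled than in COV434-labelled libraries. These are 40.5% and 10.1%, against 36.4% and 32.6% of the 13098 genes tested and 39.4% and 31.4% of the protein-coding ones. At an unadjusted p under 0.05 it was 35 and 10, against 37.8% and 34.1%. The median log2 difference was -0.37 for nuclear members and -0.02 for all genes. The division between lower and higher moved with the scaling. The library total behind the deposited FPKM, recovered from the values, was 1.07 to 1.10 times the reads on genes in KGN-labelled libraries and 0.911 to 0.978 times in COV434-labelled ones. Scaled to the reads on genes alone, a choice made after seeing the data, 21 nuclear members were lower and 12 higher, the median was -0.17 and that of all genes 0.15. With quantile normalization 19 were lower and 14 higher.

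In complex II, SDHA, SDHB and SDHC were lower, and SDHD was not called (-0.19, adjusted p = 0.482). SDHA was at 14.3 ± 0.357 FPKM in KGN-labelled and 62.8 ± 4.11 in COV434-labelled libraries (-2.06 ± 0.088, adjusted p = 1.88e-06), SDHC at 6.83 ± 0.276 and 17.1 ± 2.22 (-1.21) and SDHB at 31.3 ± 2.89 and 47.2 ± 7.92 (-0.57). In complex I, 17 of 36 were lower and 3 higher (47.2% and 8.33%, beside 39.4% and 31.4% of protein-coding genes). NDUFC2, a subunit of the membrane arm, was at 4.83 ± 0.701 and 22.5 ± 5.17 FPKM (-1.99, adjusted p = 9.66e-05), though 76.9% of its coding bases lie in another gene, and NDUFB11 and NDUFA1, both encoded on the X chromosome, differed by -1.74 and -1.50. NDUFA3 and NDUFS1 were higher in KGN-labelled libraries, by 0.98 and 0.89. NDUFV1 was lower by 0.23 at the scaling used (-0.23, adjusted p = 0.0427) and higher, at 0.19, with quantile normalization.

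The 2 core proteins of complex III went opposite ways between the lines. UQCRC1 was lower in KGN-labelled libraries, at 70.3 ± 2.08 against 156 ± 13.1 FPKM (-1.14), and UQCRC2 higher, at 34.6 ± 2.10 against 20.4 ± 4.35 (0.76). CYC1 was lower (-1.15) and the hinge protein UQCRH higher (0.80), while UQCRFS1 was not called (-0.05). In complex IV, 4 of 10 members (40%) were lower and 0 higher, beside 39.4% and 31.4% of protein-coding genes, so the share lower was near that of other genes. Among the 4 were COX7B (-1.45), COX5A (-1.12) and COX7A2 (-0.71), and COX4I1 was not called (-0.59, adjusted p = 0.0579). The COX7A2 call was lost in 9 alternatives, with a limma adjusted p of up to 0.262. The catalytic subunits of complex V differed in direction too. ATP5F1B was lower in KGN-labelled libraries (393 against 715 FPKM, -0.87) and ATP5F1A higher (64.4 against 39.9 FPKM, 0.70). Of the c subunit genes, ATP5MC1 and ATP5MC2 were lower (-1.28 and -0.86) and ATP5MC3 was not called (-0.23), and ATP5ME, a membrane subunit, was higher (1.03). ATP5ME shares 44.0% of its coding bases with another annotated gene, so its level is uncertain. The calls of ATP5ME and ATP5MC2 were lost in 4 and 9 alternatives, with a limma adjusted p of up to 0.0814 and 0.255.

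SDHA, SDHC, NDUFS1, NDUFA3, NDUFC2, CYC1, UQCRC1, COX5A, COX7B, ATP5F1B and ATP5MC1 were called between the lines under each alternative setting run, with the direction given above.

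Of the mitochondrial members 6 were lower in untreated KGN-labelled libraries and 1 higher. MT-ATP6, MT-CO3, MT-CO2, MT-CO1, MT-ND4 and MT-CYB differed by -0.82, -0.71, -0.69, -0.65, -0.62 and -0.48. That is 46.2% lower and 7.69% higher, against the 36.4% and 32.6% of all genes. None of the 6 was called with no filter. With quantile normalization MT-CO3, MT-CO2 and MT-ND4 had -0.05, -0.11 and -0.06 and were not called, and MT-CO1 had 0.16. Scaled to the reads on genes alone, MT-CO2, MT-CO1 and MT-CYB were not called (-0.48, -0.45 and -0.27). The remaining complex I genes were not called, with values from -0.13 (MT-ND2) to 0.22 (MT-ND6). MT-ATP8 was higher, at 558, 88.2 and 90.1 FPKM against 44.0, 21.6 and 24.0 (2.49, adjusted p = 0.0205), and the groups did not overlap. MT-ATP6, read from the same mRNA, went the other way (-0.82), and 22.2% of the bases of MT-ATP8 are shared with it. The level of MT-ATP8 is therefore uncertain. The MT-ATP8 call was lost without COV434-labelled library 2 or 3 (adjusted p = 0.0605 and 0.0674), and the difference was 1.62 without KGN-labelled library 1. The mitochondrial share of reads was lower in the KGN-labelled libraries by 1.60 percentage points (-1.60), with no overlap and an exact permutation p of 0.1, the smallest possible.

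**Figure D5:**
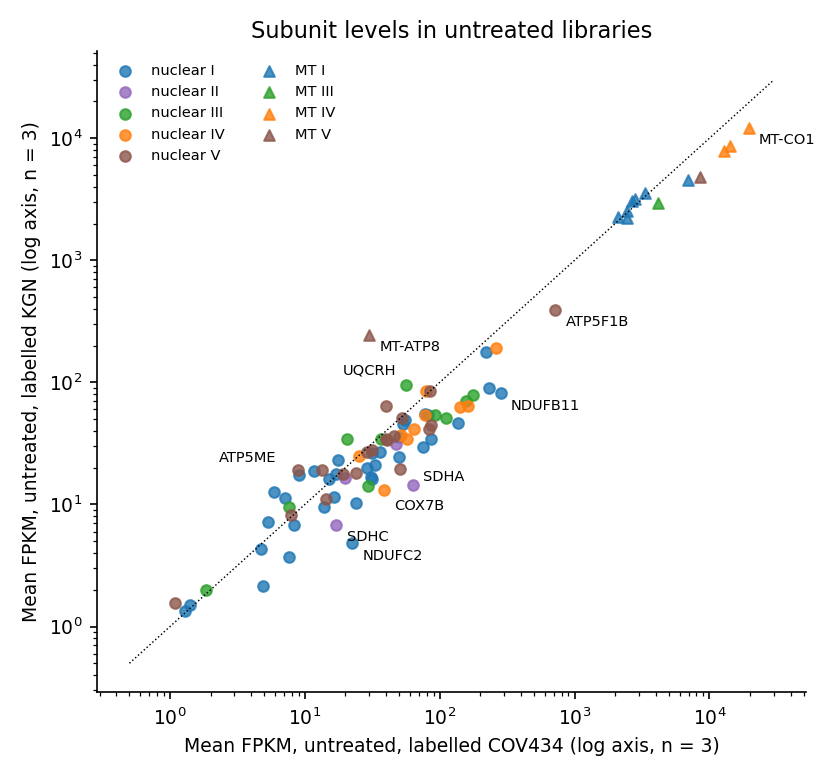
Mean FPKM of each tested member in untreated libraries labelled COV434 (x axis) and KGN (y axis), both on log axes (n = 3 each), with color for the complex, triangles for mitochondrial members and a dotted line of equal levels. SDHA, SDHC, NDUFC2, NDUFB11 and COX7B lie below the line and ATP5ME, UQCRH and MT-ATP8 above it.

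Nuclear subunit genes are known targets of NRF1, of the ETS factor GABP and of YY1. RefSeq promoter windows of 300 bases (250 before and 50 after the start, GRCh38.p14) were matched for 63 of the 83 nuclear members and searched on both strands for GCGCATGC (NRF1 core), CCGGAAG (ETS core) and AAGATGGC (YY1 core). The ETS core was in 19 windows (30.2%), against 14.2% of 15843 windows of protein-coding genes. The NRF1 core was in 13 (20.6%, against 4.26%) and the YY1 core in 11 (17.5%, against 3.91%). At least 1 of the 3 was in 52.4% of the members' windows and in 20.3% of those of protein-coding genes. Among the 18 members that fell in KGN-labelled libraries 12 had a window and 6 of these held a core, and among the 61 that were not called it was 26 of 49. The ETS core, in capitals on either strand, is shown in the 120 bases just before the annotated start of 5 genes of complexes I, III, IV and V, so the start follows the last base printed:
NDUFB7 (chr19:14572067-14572186, minus strand): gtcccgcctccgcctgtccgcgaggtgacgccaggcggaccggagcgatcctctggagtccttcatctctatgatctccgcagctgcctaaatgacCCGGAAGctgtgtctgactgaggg
UQCR11 (chr19:1605463-1605582, minus strand): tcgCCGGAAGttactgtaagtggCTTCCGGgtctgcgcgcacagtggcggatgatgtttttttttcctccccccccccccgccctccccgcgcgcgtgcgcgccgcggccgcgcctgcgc
COX5B (chr2:97645942-97646061, plus strand): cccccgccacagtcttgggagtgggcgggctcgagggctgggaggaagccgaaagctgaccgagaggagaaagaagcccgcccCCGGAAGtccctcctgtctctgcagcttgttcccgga
COX8A (chr11:63974500-63974619, plus strand): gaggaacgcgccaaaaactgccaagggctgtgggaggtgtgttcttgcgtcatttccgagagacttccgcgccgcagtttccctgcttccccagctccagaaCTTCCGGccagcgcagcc
ATP5PD (chr17:75046970-75047089, minus strand): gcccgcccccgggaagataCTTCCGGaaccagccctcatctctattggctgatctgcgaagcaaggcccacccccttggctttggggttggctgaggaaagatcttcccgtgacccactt
A match is a description of the sequence and says nothing of binding in these cells.

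Of 8 biogenesis regulators tested in KGN-labelled libraries, 2 fell and 1 rose, or 25% and 12.5%, which for so few genes is near the 16.4% and 17.6% of all genes. YY1 fell by 0.23 from 12.1 to 10.2 FPKM, and ESRRA, an orphan receptor that drives oxidative genes, fell by 0.21. GABPA, a subunit of GABP, rose by 0.18. In COV434-labelled libraries 0 of 8 were called. PPARGC1A, the coactivator of mitochondrial biogenesis, had the smallest p there (2.42 ± 0.29 FPKM untreated, 1.46 ± 0.40 treated, -0.49, adjusted p = 0.485).

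Of 47 assembly factors tested in KGN-labelled libraries 8 rose and 6 fell, or 17.0% and 12.8%, near the 17.6% and 16.4% of all genes. TMEM126B, an assembly factor of complex I, rose by 0.56 from 17.9 ± 0.76 to 26.9 ± 0.39 FPKM (adjusted p = 0.000427). FOXRED1, which serves the same complex, fell by 0.57 from 7.05 to 4.43 FPKM, and BCS1L, which inserts the Rieske protein into complex III, fell by 0.37. In COV434-labelled libraries 0 of 49 were called, and COA7 was the only one of 49 called in the interaction (0.57, adjusted p = 0.0271).

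Of 27 genes for upkeep and expression of mitochondrial DNA, 4 rose and 7 fell in the libraries labelled KGN, or 14.8% and 25.9%, beside 17.6% and 16.4% of all genes. MGME1, a nuclease that processes mitochondrial DNA, fell by 0.60 from 19.3 to 12.3 FPKM, and TBRG4 (FASTKD4), which acts on mitochondrial mRNA stability, fell by 0.41 from 17.1 to 12.5 FPKM. LRPPRC, which stabilizes and promotes polyadenylation of mitochondrial mRNAs, rose by 0.41 from 36.7 to 49.0 FPKM. TFAM, the packaging and transcription factor, was not called (0.07, adjusted p = 0.29), and POLRMT, the RNA polymerase of the organelle, fell by 0.23. In COV434-labelled libraries 0 of 27 were called. Between the untreated lines, 13 of 48 assembly factors were higher and 20 lower in KGN-labelled libraries, and 9 and 7 of the 27 were. These are 27.1% and 41.7%, and 33.3% and 25.9%, beside 32.6% and 36.4% of all genes. Of 9 isoform and carrier genes outside the name rule only COX7A2L and CYCS, which encodes cytochrome c, passed the filter, and in KGN-labelled libraries both rose, by 0.43 and 0.26.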

How the data were processed

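Total RNA of the 12 samples was sequenced by a commercial provider. Per the submitters' processing notes, reads were aligned with HISAT2 2.0.5, and the notes name mouse builds (mm10, mm8), whereas the deposited gene IDs are human and their coordinates match GENCODE 29 on GRCh38. The extraction text in the labels speaks of retinas, and the retinal markers were near 0 reads. The counting tool and strand setting are not given in the sources used here. The authors deposited 1 table of FPKM per gene and library. FPKM times the deposited gene length gave whole reads for 100% of values (tolerance 0.05), so reads on genes could be recovered.

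Only genes whose mean FPKM reached 1 in the libraries compared entered the test. The test was limma 3.58.1 (R 4.3.3; lmFit, eBayes with trend) on log2(FPKM + 1), two-sided, with Benjamini-Hochberg adjustment over all genes tested, and genes were called at an adjusted p under 0.05. The count at an unadjusted p under 0.05, the threshold stated in the study, is given beside it. Each line was fitted alone, the interaction used all 12 libraries, and the baseline used the 6 untreated ones. Single values per library were compared by an exact two-sided permutation test. The fits within each line were run on simulated counts with the same relative spread for all genes. That simulation held no pairing and no outlying library, so it does not cover these features of the COV434-labelled libraries. No pair of libraries held identical values.

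Same-numbered treated and untreated libraries deviated together in the COV434-labelled libraries (correlations of deviations 0.400, 0.474 and 0.166). They did not in those labelled KGN (-0.0164, -0.0180 and -0.0190) or between lines. The third COV434-labelled pair was little above the 0.154 of untreated library 3 with treated library 2. The pairing comes from the data, since the labels give a number only.

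The members, lists and tests were chosen with earlier results of these data known. Genes named are all mitochondrial members, the SDH genes, a set of core and catalytic subunits, and per comparison and complex the called members with the most positive and most negative fold change, or the one with the smallest p, with up to 3 genes per other list. Other called members that are named were chosen after their values were seen, as were TFAM, POLRMT, NDUFB11, NDUFA1 and UQCRC2. Alternatives varied the pseudocount, filter, scaling, gene length trend, block, samples and unit (limma voom on recovered reads). Leaving out both COV434-labelled libraries numbered 1 and scaling to the reads on genes alone were added after seeing the data. Counting precision is set by 15547851 to 18280415 reads per library, and 3 reads on a gene of 1 kb correspond to 0.152 to 0.200 FPKM. Values of some single genes are not reported here.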

Additional observations from a re-analysis of the deposited data

Results flagged for a closer look

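The mitochondrial ribosomal and transfer RNAs are outside the 96 subunit genes, and both took a larger share of reads after 77-39 than in the untreated libraries labelled KGN. The 2 ribosomal RNAs took 1.80% of the reads in treated libraries (1.74 to 1.91%), against 1.28 ± 0.0344% in untreated ones (1.24 to 1.31%). The transfer RNAs took 0.0615% (0.0556 to 0.0719%) against 0.0491 ± 0.00522% (0.0443 to 0.0547%). In the COV434-labelled libraries the shares were 1.46 ± 0.617% against 0.961 ± 0.126% for ribosomal and 0.0688 ± 0.00383% against 0.0621 ± 0.00790% for transfer RNA, with overlap for both. The larger ribosomal RNA, MT-RNR2, rose by 0.52 in KGN-labelled libraries, from 7010 ± 207 to 10039 ± 511 FPKM (limma adjusted p = 0.0116), and had a fold change of 0.50 in COV434-labelled ones (adjusted p = 0.822). The smaller, MT-RNR1, had 0.13 (adjusted p = 0.655) and 0.73 (adjusted p = 0.560).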

How the results depend on the processing

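In KGN-labelled libraries the count of called members, 24 as reported, was 15 with a filter of mean FPKM 0.1, 10 with no filter and 5 in 1 fit of all 12 libraries, whose spread includes the COV434-labelled ones, and it ranged from 15 to 29 with 1 library left out. Each filter widens the set of genes tested, and the cause of the loss was not tested. With the replicate block it was 16, of which 15 were among the 24. The block was no pairing there, since same-numbered libraries did not deviate together. In COV434-labelled libraries the count was 0 under each setting, the replicate block included, although with the block 39 genes were called higher and 48 lower over all genes. In the interaction it was 0 as reported and with the replicate block, 0 to 1 with 1 library left out, and 3 with both COV434-labelled libraries numbered 1 left out. Between the untreated lines it was 47 as reported, 40 with the replicate block and 30 to 70 with 1 library left out: 31 and 30 without KGN-labelled libraries 2 and 3. The block changed no other call counted here.

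The mitochondrial median in KGN-labelled libraries was 0.037 with quantile normalization in place of 0.29. In the interaction it was -0.12 to 0.35 with 1 library left out. Between the untreated lines the mitochondrial median was 0.079 with limma voom and 0.073 when scaled to the reads on genes alone, in place of -0.13, and the nuclear median was -0.021 with quantile normalization. In COV434-labelled libraries the change in the mitochondrial share of reads ranged from -0.707 to 1.63 percentage points and that of the log2 ratio from -0.23 to 0.58, with negative values without treated library 1 (-0.707 and -0.23) or, for the ratio, without untreated library 2 (-0.0037). Of the 148 values of single named genes, 56 took both signs over the alternatives (4 of 36 in KGN-labelled libraries, 23 of 37 in COV434-labelled ones, 15 of 36 in the interaction and 14 of 39 between the untreated lines). In 4 of these turns the value was called under the reported or the other setting: MT-CO2 in KGN-labelled libraries (-0.16, quantile), MT-ATP8 there (-1.04 to 0.29 with 1 library left out, and 0.29 without untreated library 1), and, between lines with quantile normalization, MT-CO1 (0.16) and NDUFV1 (0.19). The causes were not tested.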
